A study of Mus musculus with 12 samples.

Results

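Aminoacyl-tRNA synthetases are the enzymes that join each amino acid to its transfer RNA, the step that supplies every ribosome with charged tRNA. Animal cells carry separate nuclear genes for most of the cytosolic and the mitochondrial enzymes, and the mitochondrial enzymes charge tRNAs for the few proteins made inside that organelle. In mammalian cells short of amino acids or under endoplasmic reticulum stress, the transcription factor ATF4 is known to raise many cytosolic synthetase genes together with genes of amino acid synthesis and uptake. The 35 synthetase genes described here were chosen by a rule on symbols, set with earlier results of these data known. A symbol of 1 letter followed by ars or ars1, or Eprs, Farsa or Farsb, marked the 19 cytosolic genes, and a symbol ending in ars2 marked the 16 mitochondrial ones. They were taken from 18193 genes that the platform annotation names by a single symbol, and all 35 were among the 11815 genes that passed the filter on dim signals. The classes follow the names alone: Gars and Kars, each known to serve both compartments from 1 gene, are counted as cytosolic.

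Messenger RNA of mouse cells was measured on 12 single-colour expression arrays, in 4 groups of 3. The groups were Stat5a and Stat5b knockout cells with treatment, the same knockout without treatment, control cells with treatment, and control cells without treatment. The knockout is given as a loss of both genes in blood cells, which removes both forms of STAT5, a transcription factor that acts downstream of the GM-CSF receptor. The line that deleted the genes, the mouse strain, age, dose and duration are not given in the sources used here, and the treatment field names only "GMP", letters that also stand in titles of untreated arrays, so the plain words treated and untreated are used. The arrays were run on 3 dates, each with 1 array of every group, and for date 2 a number in the titles differs between the treated knockout array and its 3 companions, with no meaning given. Whether the samples of a group are separate animals is not stated, so a p-value covers the spread between samples, which may in part be technical.

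Stat5a had signals of 26.7 to 101 on the knockout arrays, against 375 to 1147 on the control arrays, and Stat5b of 1.80 to 60.5 against 287 to 1531. Of 12 granulocyte and monocyte progenitor markers 11 were tested and 0 passed an adjusted p under 0.05 in either treatment comparison. Of all genes tested, 6.73% passed higher and 4.45% lower in knockout cells, and 4.21% and 2.56% in control cells. At those shares few calls would fall among 11 genes. Mpo and Elane, the myeloperoxidase and neutrophil elastase genes, were at or above 15309 and 6216 on every array. The markers were not level: their log2 changes with treatment ran from -1.87 to 0.45 in knockout cells and from -1.25 to 0.56 in control cells. Ms4a3, Cd34 and Cebpa were lower, and Csf1r higher, on the treated array of every date in both genotypes. The arrays of date 2 stood apart: the signal at the 3′ end of Actb over that at its 5′ end was 20.8 to 266 there, against 1.14 to 2.05 on dates 1 and 3, a ratio that goes up as RNA is degraded or copied short. On date 2 the synthetase genes lay mostly lower than on the other dates, with a median difference of -0.57 on the log2 scale for the cytosolic genes (14 of 19 below) and -0.70 for the mitochondrial genes (12 of 16 below), against 0.00 for all genes tested. For that reason values are given date by date, the date was a block in the main fit, and calls gained or lost without date 2 are given with each gene.

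Treatment of knockout cells was followed by higher signals of 5 cytosolic synthetase genes, Aars, Cars, Gars, Iars and Tars, and by lower signals of 2 mitochondrial ones, Vars2 and Yars2, at a Benjamini-Hochberg adjusted p under 0.05 in limma. No cytosolic gene was called lower and no mitochondrial gene was called higher. In that comparison 6.73% of all genes tested were called higher and 4.45% lower. In control cells 4 cytosolic genes rose, Aars, Gars, Iars and Tars, with 0 cytosolic genes lower and 0 mitochondrial genes called either way, where 4.21% of all genes were called higher and 2.56% lower. At an unadjusted p under 0.05, 6 cytosolic genes were higher and 7 mitochondrial genes lower in treated knockout cells. At that threshold 13.8% of all genes were higher and 13.4% lower there. In treated control cells 8 cytosolic genes were higher and 2 mitochondrial genes lower, where 11.5% of all genes were higher and 11.8% lower. Without the date block only Aars and Vars2 stayed past the threshold in knockout cells (adjusted p of 0.0179 and 0.0360) and only Aars in control cells (adjusted p = 0.0256). Fewer cells with a transcript and less of it per cell cannot be told apart in such bulk samples.

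Aars, the alanine enzyme, had signals of 6046, 7576 and 7404 on dates 1 to 3 in treated knockout cells, against 2388, 2387 and 2407 in untreated knockout cells. In treated control cells Aars was at 7676, 4668 and 6372, against 2541, 1712 and 2110 in untreated control cells. Every treated array lay above every untreated array of its genotype. The log2 change of Aars was 1.54 ± 0.24 in knockout cells (SE, limma adjusted p = 0.0041) and 1.54 ± 0.24 in control cells (adjusted p = 0.0060), and neither call was lost in any fit that left out 1 array. A dimmer Aars probe set differed the same way, by 2.01 ± 0.70 in knockout cells and 1.18 ± 0.70 in control cells, at adjusted p of 0.106 and 0.379 over the 21363 probe sets tested on their own. With the probe sets of shared sequence (_s_at) set aside, an alternative added after the data were seen, this dimmer set stands for Aars and neither genotype is called. With the mean of both sets the value was 1.77 in knockout cells (adjusted p = 0.0306) and 1.36 in control cells (adjusted p = 0.0992).

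Gars, the glycine enzyme, was at 10654, 10327 and 9851 in treated knockout cells, against 5823, 5438 and 4983 in untreated knockout cells. The corresponding Gars signals were 11271, 7287 and 8463 in treated control cells, against 6179, 4449 and 4747 in untreated control cells. Treated and untreated arrays did not overlap in either genotype, and the change was close to the same on all 3 dates. Gars rose by 0.93 ± 0.20 in knockout cells (SE, limma adjusted p = 0.0180) and by 0.80 ± 0.20 in control cells (adjusted p = 0.0420). The call in knockout cells was lost without knockout treated replicate 2 or 3 or knockout untreated replicate 1 or 3 (highest adjusted p 0.0823). The call in control cells was lost without the control treated array of date 1 or 3, any control untreated array, knockout treated replicate 3, or knockout untreated replicate 1 or 3 (at most 0.151).

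Tars, the threonine enzyme, had signals of 6409, 2364 and 4559 in treated knockout cells, against 2700, 1257 and 2308 in untreated knockout cells. With treatment, Tars in control cells was at 6456, 1751 and 4453, against 2683, 1081 and 2298 in untreated control cells. The groups overlapped across dates because date 2 was low in every group, while on each date the treated array was the higher one. Tars rose by 1.04 ± 0.21 in knockout cells (SE, limma adjusted p = 0.0134) and by 0.97 ± 0.21 in control cells (adjusted p = 0.0246). Without knockout untreated replicate 1 or 3 the knockout value was no longer called (highest adjusted p 0.0652). The control value was not called without the treated control array of date 1 or 3, nor without any control untreated array (at most 0.108).

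Iars, the isoleucine enzyme and a member of the multisynthetase complex, was at 4259, 8072 and 5002 in treated knockout cells, against 2590, 4621 and 2954 in untreated knockout cells. Its signals were 5628, 11072 and 4533 in treated control cells, against 2813, 5095 and 2792 in untreated control cells. Iars was highest on date 2 in all 4 groups, the opposite of Tars, and again the treated array exceeded the untreated array on each date. The log2 change was 0.76 ± 0.20 in knockout cells (SE, limma adjusted p = 0.0417) and 0.94 ± 0.20 in control cells (adjusted p = 0.0257). In knockout cells the call of Iars stayed past the threshold only without control treated replicate 2 or 3 (adjusted p of at most 0.15 without any of the other 10 arrays), and in control cells it was lost without control treated replicate 1 or 2 or any control untreated array (at most 0.111). Without date 2 Iars was called in neither, at 0.74 in knockout cells (adjusted p = 0.0676) and 0.85 in control cells (adjusted p = 0.0527). With the mean of its 2 probe sets Iars was not called in knockout or control cells (adjusted p of 0.0583 and 0.113).

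Cars, the cysteine enzyme, had signals of 1823, 740 and 1133 in treated knockout cells, against 401, 147 and 260 in untreated knockout cells. In treated control cells Cars was at 1251, 84.2 and 1331, against 375, 32.6 and 324 in untreated control cells. The knockout groups did not overlap, whereas the control treated array of date 2 lay below the untreated control arrays of the other dates. Cars rose by 2.15 ± 0.55 in knockout cells (SE, limma adjusted p = 0.0352), lost without any knockout treated array, knockout untreated replicate 1 or 3, or control untreated replicate 1 or 3 (at most 0.146). In control cells it differed by 1.60 ± 0.55 (adjusted p = 0.117), by 1.85 without date 2 (adjusted p = 0.0074) and by 2.29 without control treated replicate 2 (adjusted p = 0.0277). Another Cars probe set was at 129, 153 and 91.9 in treated knockout cells, against 19.1, 13.8 and 9.27 in untreated knockout cells, where it lay near the added constant of 13 and gives no reliable size of change. In control cells this dim set overlapped between the groups, at 126, 18.4 and 60.6 with treatment, against 13.5, 91.8 and 14.8 without.

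**Figure D1:**
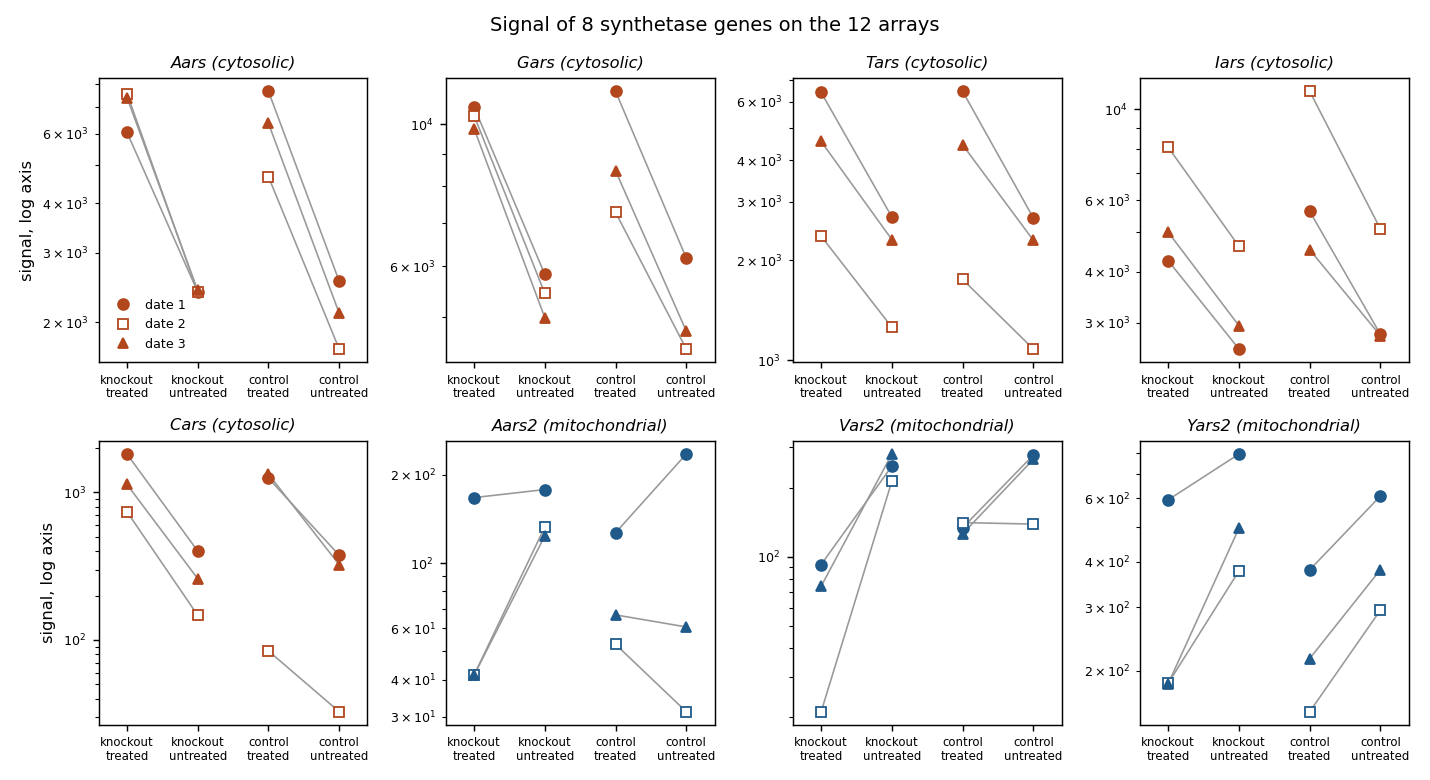
Signal of 5 cytosolic and 3 mitochondrial synthetase genes on each of the 12 arrays, on a log axis, by group, with arrays of 1 date and genotype joined by a line and the marker giving the date. Aars and Gars were higher on every treated array than on any untreated array of the same genotype, and the open squares of date 2 lie far from the other dates for Tars, Iars and Cars.

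The promoters of the cytosolic genes that rose were set beside these values because the amino acid response acts through an element bound by ATF4 and C/EBP proteins. The 250 bases before the start of each gene in the RefSeq promoter table (GRCm38.p6) were searched for TGATGNAA on either strand. Among the called genes Aars, Gars and Tars hold a match and Iars does not, so 3 of the 4 with a promoter in the table have one. In all, 3 of 12 cytosolic genes with a promoter in the table (25.0%) and 0 of 14 mitochondrial genes hold it, against 247 of 9623 genes tested (2.57%). The 3 matches are shown, each on the gene's strand, 5′ to 3′, with the match in capitals, where it reads on the opposite strand.
Aars, chr8:111033704-111033763, plus strand: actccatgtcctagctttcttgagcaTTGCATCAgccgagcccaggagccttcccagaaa
Gars, chr6:55037945-55038000, plus strand: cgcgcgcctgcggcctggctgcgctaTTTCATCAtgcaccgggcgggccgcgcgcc
Tars, chr15:11399659-11399699, minus strand: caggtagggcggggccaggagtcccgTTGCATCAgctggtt
The matches of Aars and Tars are the same 8 bases, TTGCATCA, and that of Gars is TTTCATCA. None of the 8 cytosolic genes that were not called in either genotype and have a promoter in the table holds a match. At the share of 2.57% among genes tested, a match in 8 genes would be rare, so this 0 does not set them apart from other genes. The split into called and uncalled genes also comes from these same data. A match in letters is a description of the sequence and shows no binding.

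The other cytosolic genes ranged in knockout cells from -0.80 for Farsa to 0.96 for Sars on the log2 scale, at adjusted p of 0.0667 or above. Yars, the tyrosine enzyme, was nearest to a call, at 3096, 2201 and 2494 in treated knockout cells, against 1711, 1344 and 1269 in untreated knockout cells. Yars was at 2782, 1547 and 2755 in treated control cells, against 1383, 810 and 1880 in untreated control cells. The treated array was the higher one on each date. Its difference was 0.84 ± 0.26 in knockout cells (adjusted p = 0.0667) and 0.82 ± 0.26 in control cells (adjusted p = 0.0900). Sars, the serine enzyme, differed by 0.96 ± 0.53 in knockout cells (adjusted p = 0.273) and 0.07 ± 0.53 in control cells (adjusted p = 0.958), where its date 2 value was -1.19 and the others 0.52 and 0.88. Its other probe set was higher with treatment on every date in both genotypes. That set was at 3340, 1191 and 3554 in treated control cells, against 2032, 997 and 1715 in untreated control cells. In knockout cells it was at 4093, 2998 and 3743, against 2115, 1346 and 1618. Without control treated replicate 2, Sars was called in knockout cells (adjusted p = 0.0366), and without date 2 it was called there at 1.06 (adjusted p = 0.0248). Wars, the tryptophan enzyme, had 0.73 ± 0.49 in knockout and 0.22 ± 0.49 in control cells, and Nars, the asparagine enzyme, 0.55 ± 0.25 in knockout and 0.44 ± 0.25 in control cells. Lars, the leucine enzyme, differed by 0.35 ± 0.23 in knockout cells and 0.71 ± 0.23 in control cells (adjusted p = 0.0941).

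The multisynthetase complex is a cytosolic assembly of synthetases and scaffold proteins. Of its 7 measured synthetases, 1 was called in knockout cells and 1 in control cells, Iars each time, against 4 and 3 of the 12 other cytosolic genes. Eprs, the fused glutamate and proline enzyme, differed by 0.30 ± 0.24 in knockout and 0.59 ± 0.24 in control cells, and Mars1, the methionine enzyme, by 0.39 ± 0.20 in either genotype. Qars, Rars and Kars, the glutamine, arginine and lysine enzymes, had 0.07 ± 0.28, -0.15 ± 0.25 and -0.23 ± 0.34 in knockout cells and -0.45 ± 0.28, -0.29 ± 0.25 and -0.50 ± 0.34 in control cells. None of these was called. The genes for the scaffold proteins of the complex, Aimp1, Aimp2 and Eef1e1, were not called in either genotype.

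By the probe set that stood for each gene, the 2 subunits of the cytosolic phenylalanine enzyme were on the other side. Farsa, which encodes the alpha subunit, had signals of 1680, 469 and 1289 in treated knockout cells, against 3322, 856 and 1929 in untreated knockout cells. Farsa in treated control cells was at 1624, 23.5 and 1131, against 2980, 90.6 and 2052 in untreated control cells. The treated array was the lower one on every date. Farsa was not called, at -0.80 ± 0.73 in knockout cells (adjusted p = 0.533) and -1.08 ± 0.73 in control cells (adjusted p = 0.423). Without date 2 Farsa was called lower in both, by -0.78 in knockout cells and -0.86 in control cells. A dimmer Farsa probe set went the other way, at 214, 199 and 133 in treated knockout cells, against 121, 47.0 and 74.9 untreated. In control cells this set was at 178, 204 and 199, against 156, 2.22 and 109. Another dim set was also higher with treatment on every date in both genotypes, and a further one had changes of both signs. Farsb, the beta subunit, differed by -0.47 ± 0.23 in knockout and -0.04 ± 0.23 in control cells.

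Vars2, the mitochondrial valine enzyme, had signals of 92.6, 21.2 and 74.6 in treated knockout cells, against 249, 214 and 281 in untreated knockout cells. In treated control cells Vars2 was at 134, 141 and 126, against 278, 139 and 266 in untreated control cells. The treated knockout arrays all lay below the untreated ones, and in control cells the treated array was the lower one on dates 1 and 3 and level with the untreated one on date 2. Vars2 fell in knockout cells, at -1.93 ± 0.32 (SE, limma adjusted p = 0.0057), a call kept in each of the 12 fits without 1 array, and differed by -0.66 ± 0.32 in control cells (adjusted p = 0.250), or -0.996 without date 2 (adjusted p = 0.0272). Its other probe set differed by -0.76 ± 0.69 in knockout cells and 0.11 ± 0.69 in control cells, and the mean of both sets gave -1.34 in knockout cells (adjusted p = 0.0760).

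Yars2, the mitochondrial tyrosine enzyme, was at 595, 185 and 184 in treated knockout cells, against 797, 378 and 496 in untreated knockout cells. Its signals were 380, 154 and 216 in treated control cells, against 610, 294 and 381 in untreated control cells. Groups overlapped across dates, and the treated array was lower on each date in both genotypes. Yars2 fell by 0.92 ± 0.23 in knockout cells (SE, limma adjusted p = 0.0324) and differed by -0.78 ± 0.23 in control cells (adjusted p = 0.0749). The call in knockout cells was lost without knockout treated replicate 2 or 3, any knockout untreated array, the control treated array of date 1 or 3, or the untreated one of date 3 (highest adjusted p 0.135). Without date 2 it was -0.89 and not called (adjusted p = 0.0838).

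The other 14 mitochondrial genes lay between -0.94 and 0.28 in knockout cells, at adjusted p of 0.0555 or above. Aars2, the counterpart of Aars, had signals of 167, 41.6 and 41.5 in treated knockout cells, against 178, 133 and 124 in untreated knockout cells, a difference of -0.94 ± 0.35 (adjusted p = 0.114). In control cells Aars2 was at 127, 52.9 and 66.6 with treatment, against 235, 31.2 and 60.6 without, and its changes on the 3 dates had both signs. Iars2, the isoleucine enzyme, was at 459, 781 and 467 in treated knockout cells, against 811, 949 and 794 in untreated knockout cells, groups that did not overlap. Iars2 was at 620, 724 and 569 in treated control cells, against 861, 874 and 803 in untreated control cells, again without overlap. Its differences were -0.61 ± 0.21 (adjusted p = 0.0884) in knockout and -0.41 ± 0.21 (adjusted p = 0.276) in control cells.

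Cars2, the cysteine enzyme of mitochondria, was at 637, 473 and 470 in treated knockout cells, against 1085, 547 and 897 in untreated knockout cells. Its signals in treated control cells were 674, 213 and 516, against 919, 565 and 742 in untreated control cells. It was lower with treatment on all 3 dates in both genotypes, by -0.62 ± 0.26 (adjusted p = 0.153) and -0.77 ± 0.26 (adjusted p = 0.108). Tars2, the threonine enzyme, was at 1710, 1271 and 1368 in treated knockout cells, against 3043, 1489 and 2627 in untreated knockout cells, and at 2112, 541 and 1343 in treated control cells, against 2953, 566 and 2436 in untreated control cells. Its differences of -0.66 ± 0.36 and -0.47 ± 0.36 did not pass. Nars2, the asparagine enzyme, was nearest to a call in knockout cells, at -0.78 ± 0.23 (adjusted p = 0.0555), and was called without control treated or control untreated replicate 2 (adjusted p of 0.0477 and 0.0496). Without date 2, Cars2, Iars2 and Tars2 were called lower in knockout cells, by -0.83, -0.78 and -0.88. Fars2 and Wars2, the phenylalanine and tryptophan enzymes, showed the highest values of the class in knockout cells, 0.28 ± 0.27 and 0.14 ± 0.20.

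Vars, the cytosolic counterpart of Vars2, was at 2031, 1775 and 1048 in treated knockout cells, against 2289, 1447 and 1550 in untreated knockout cells. In treated control cells Vars was at 2361, 9.78 and 1017, against 2051, 138 and 1692 in untreated control cells, so its control value of -1.08 ± 1.11 rests on a date 2 difference of -2.73. The value in knockout cells was -0.15 ± 1.11.

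**Figure D2:**
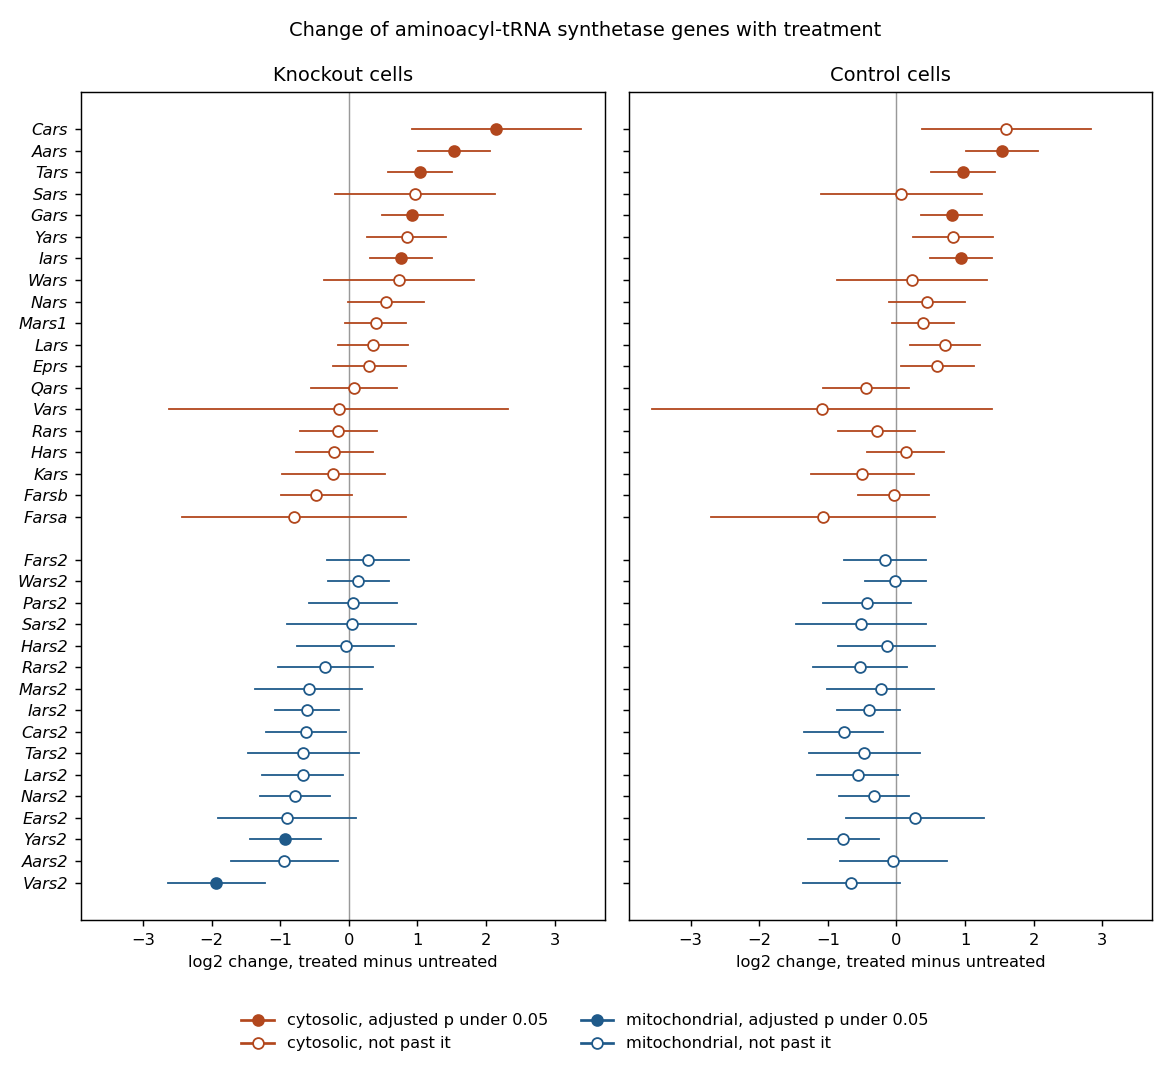
Log2 change with treatment of the 19 cytosolic and 16 mitochondrial synthetase genes in knockout cells (left) and control cells (right), ordered by the value in knockout cells, with 95% confidence intervals. Filled points passed an adjusted p under 0.05: Cars, Aars, Tars, Gars and Iars above 0 and Vars2 and Yars2 below it in knockout cells, and Aars, Tars, Gars and Iars above 0 in control cells.

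As classes, the cytosolic genes had a median log2 change of 0.39 in knockout cells and the mitochondrial genes one of -0.62, against -0.02 for all genes tested. In control cells the medians were 0.39 and -0.42, against -0.04 for all genes. Of the 19 cytosolic genes 13 were above 0 in knockout cells and 13 in control cells, 12 of them in both. Of the 16 mitochondrial genes 12 were below 0 in knockout cells and 15 in control cells, 11 of them in both, and none was above 0 in both. The 2 treatment comparisons use different arrays but share the array dates.

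By date, 12 cytosolic genes were higher with treatment on all 3 dates in knockout cells and 4 lower, a share of 63.2% higher against 24.5% of all genes tested. In control cells 10 were higher on all 3 dates and 3 lower, or 52.6% higher against 23.1% of all genes. Of the mitochondrial genes 8 were lower on all 3 dates in knockout cells and 1 higher, a share of 50% lower against 27.0% of all genes. In control cells 10 were lower and 0 higher, 62.5% against 27.6% of all genes. Groups did not overlap for 5 cytosolic genes that were higher and 1 that was lower in treated knockout cells and for 3 mitochondrial genes that were lower, where 11.03% of all genes lay apart higher and 9.90% lower. The corresponding counts in control cells were 3 cytosolic genes higher and 3 mitochondrial genes lower, against 8.35% and 7.68% of all genes.

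To compare the classes array by array, each gene's log2 values were centred on its mean over the 12 arrays and averaged over the class. The cytosolic mean minus the mitochondrial mean was 0.498, 0.664 and 0.755 on dates 1 to 3 in treated knockout cells, against -0.353, -0.409 and -0.273 in untreated knockout cells. It was 0.564, -0.499 and 0.495 in treated control cells, against -0.412, -0.786 and -0.245 in untreated control cells. The treated array exceeded the untreated array of its date and genotype in all 6 pairs, and the treated control array of date 2 was the only treated array below 0. Paired by date, the cytosolic mean changed with treatment by 0.433, 0.475 and 0.451 in knockout cells and the mitochondrial mean by -0.418, -0.599 and -0.577. The difference between the classes was 0.984 ± 0.118 in knockout cells and 0.668 ± 0.351 in control cells (SD over 3 dates), with 0.976, 0.286 and 0.740 on the single dates in control cells. Over the processing alternatives and the fits without 1 array it lay between 0.80 and 1.13 in knockout cells and between 0.47 and 0.95 in control cells. The ends of both ranges came from fits without 1 array.

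**Figure D3:**
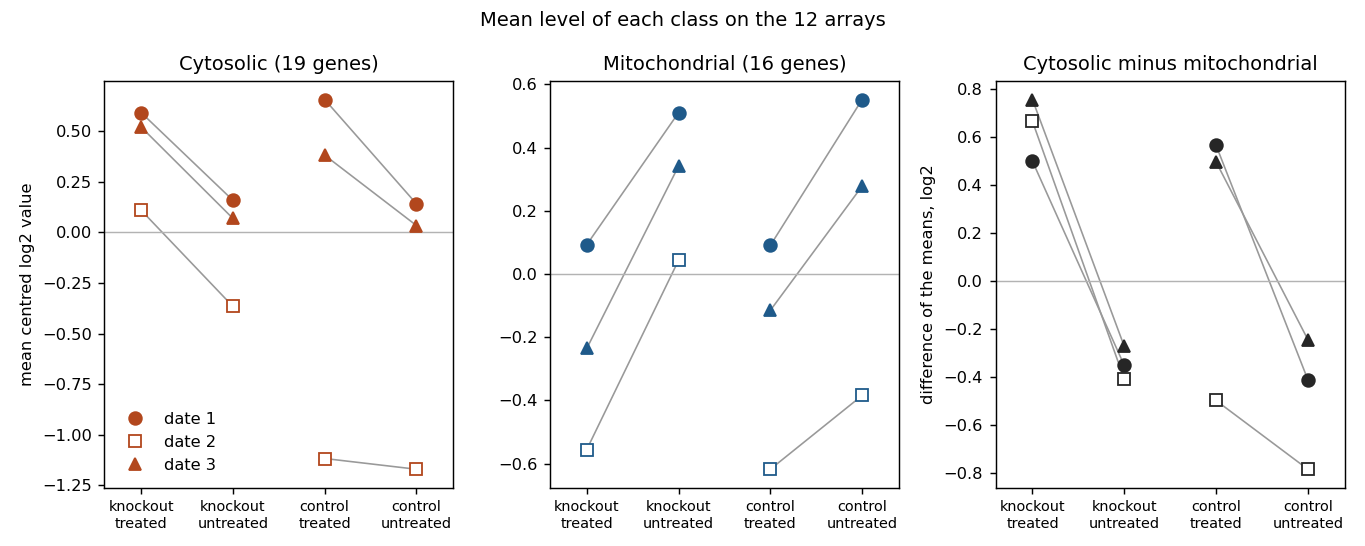
Mean centred log2 value of the 19 cytosolic genes, of the 16 mitochondrial genes and their difference on each of the 12 arrays, with arrays of 1 date and genotype joined. The cytosolic mean was higher and the mitochondrial mean lower on the treated array of every joined pair, and date 2 of the control cells lay lowest for the cytosolic genes.

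For 16 amino acids both compartments were measured, which gives 17 pairs because Fars2 was set against Farsa and Farsb and Eprs against Ears2 and Pars2. The cytosolic change exceeded the mitochondrial change in 14 pairs in knockout cells and 15 in control cells, with median gaps of 1.03 and 0.62 on the log2 scale. Cysteine showed the widest gap in both genotypes, 2.78 in knockout cells and 2.37 in control cells. Alanine followed in knockout cells with 2.48, and tyrosine in control cells with 1.60. The exceptions were Hars against Hars2, the histidine enzymes, and both phenylalanine pairs in knockout cells, and Vars against Vars2 and Farsa against Fars2 in control cells. These gaps were given no test, since pairs share arrays and some share a gene.

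**Figure D4:**
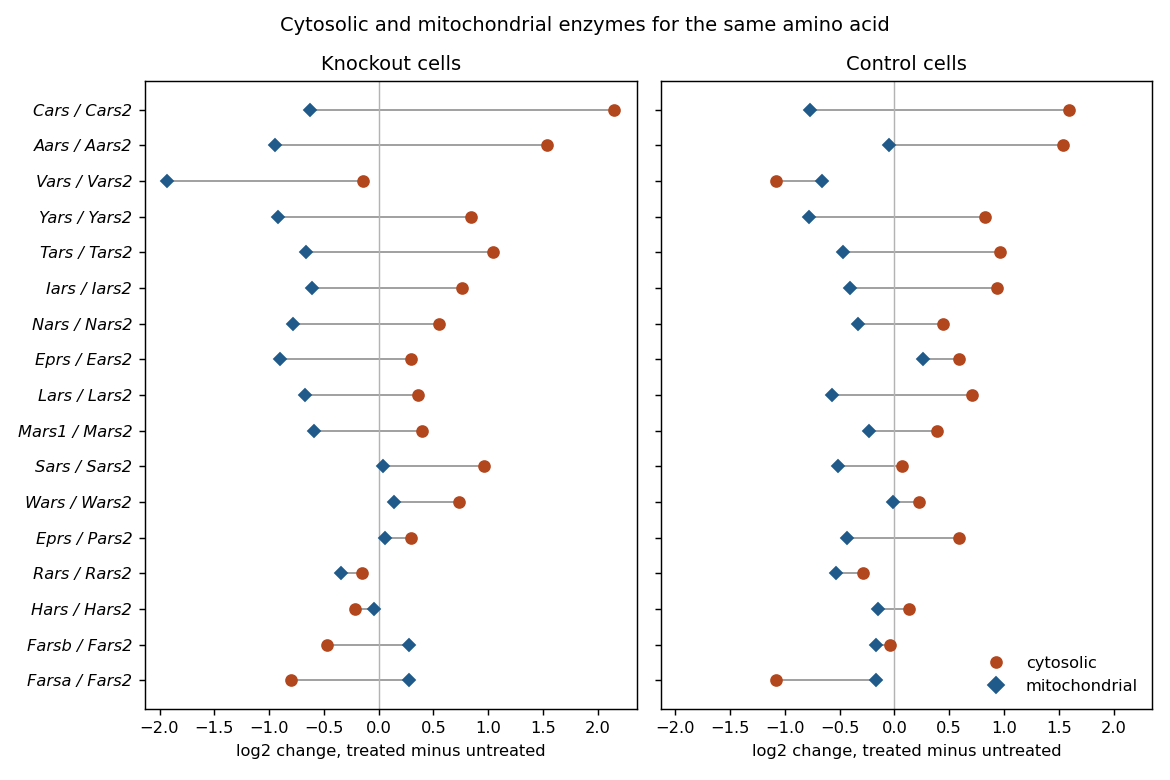
Log2 change with treatment of the cytosolic enzyme (circle) and the mitochondrial enzyme (diamond) for the same amino acid in knockout cells (left) and control cells (right). The circle lies to the right of the diamond in 14 of 17 pairs in knockout cells and 15 of 17 in control cells.

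The response to treatment was compared between genotypes by an interaction term. No synthetase gene passed in either direction, and 0% of all genes were called higher and 0% lower, with 291 of 11815 genes at an unadjusted p under 0.05. The change of Aars in knockout cells minus that in control cells was -0.00 ± 0.33, with a 95% confidence interval of -0.74 to 0.74. For Gars it was 0.12 (-0.51 to 0.75), for Tars 0.07 (-0.58 to 0.73), for Iars -0.18 (-0.82 to 0.46) and for Cars 0.55 (-1.19 to 2.29). The intervals of Aars, Gars and Tars leave out a difference as large as their own change in either genotype, and those of Iars and Cars do not. Vars2 had the largest difference below 0, at -1.27 ± 0.45 (interval -2.27 to -0.27, unadjusted p = 0.0177 and adjusted p = 0.9999, both from limma), made up of -0.32, -2.75 and -0.74 on the 3 dates. Its call in knockout cells and not in control cells is therefore not shown to be a difference between the genotypes, and the same holds for Cars and Yars2.

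Knockout and control cells were also compared directly. Among untreated cells no synthetase gene was called, where 0% of all genes were higher and 0.0169% lower in knockout cells. Of the cytosolic genes 18 of 19 were above 0, with a median of 0.18, and the median of the mitochondrial genes was 0.10. Among treated cells again no member was called, against 0% of all genes higher and 0.11% lower, with medians of 0.21 and -0.06. Groups did not overlap for 3 of 16 mitochondrial genes, Mars2, Nars2 and Vars2, lower in treated knockout cells, and for 0 cytosolic genes. Among all genes tested 2.45% lay apart higher and 3.74% lower there. Mars2 was dim on those arrays, at 22.3 to 76.3. Without treatment 0 members of either class lay apart, against 1.55% and 2.28% of all genes. Vars2 had the smallest adjusted p of the members in treated cells, at -1.11 ± 0.32 (adjusted p = 0.444, limma).

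In size, the positive cytosolic values between genotypes came mostly from date 2. The cytosolic class mean in knockout minus control cells was -0.06, 1.23 and 0.14 on dates 1 to 3 with treatment, and 0.02, 0.80 and 0.04 without. By sign, 7, 14 and 17 of 19 cytosolic genes were higher in treated knockout cells on dates 1 to 3. The shares of all genes tested were 50.6%, 52.4% and 47.3%. Without treatment the counts were 8, 16 and 13, against 51.6%, 53.0% and 43.6% of all genes. The largest single gap was that of Vars, 6.29 on date 2 with treatment and -0.22 and 0.04 on the other dates. On date 2 the 3′ over 5′ ratio of Actb was 20.8 in treated knockout, 28.7 in untreated knockout, 266 in treated control and 59.5 in untreated control cells. The part of RNA quality in these values was not tested.

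**Figure D5:**
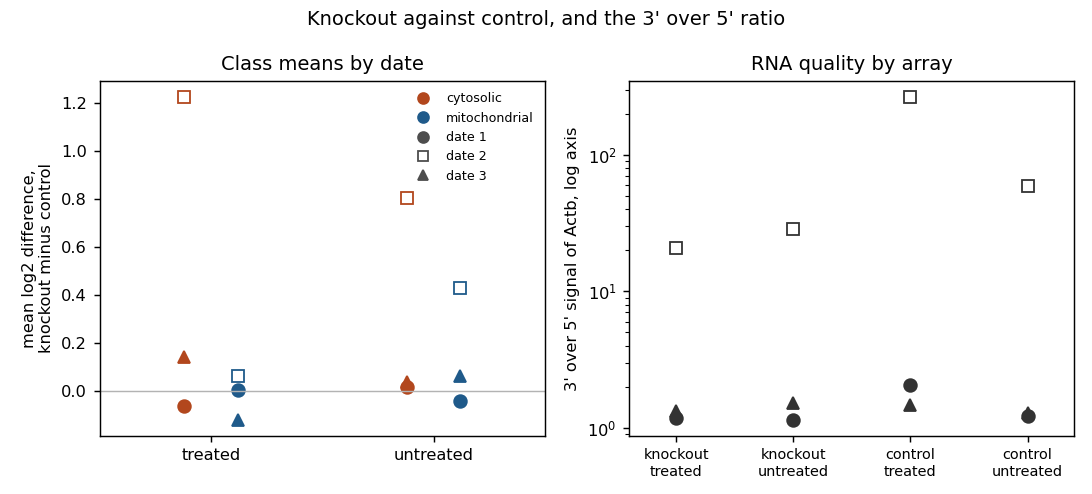
Left, mean log2 difference between knockout and control cells of the cytosolic and the mitochondrial class on each date, with and without treatment. Right, the 3′ over 5′ signal ratio of Actb on each array, on a log axis. Date 2 holds both the highest cytosolic differences, 1.23 and 0.80, and the highest ratios, 20.8 to 266.

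Genes of the amino acid response were followed as a companion list, chosen with earlier results of these arrays known, so that its direction is no independent evidence. Of 42 listed genes 41 were tested, of which 22 were called higher and 0 lower in knockout cells (median 0.97). In control cells 18 were called higher and 0 lower (median 1.26). Among all genes tested 6.73% were called higher and 4.45% lower in knockout cells, and 4.21% and 2.56% in control cells. Asns, the asparagine synthetase gene, rose by 2.71 ± 0.35 in knockout cells (adjusted p = 0.0019, limma) and by 2.00 ± 0.35 in control cells (adjusted p = 0.0103, limma). Chac1, which encodes a glutathione-degrading enzyme, rose by 4.05 ± 0.50 and 4.48 ± 0.50, and Trib3, a pseudokinase gene that ATF4 is known to activate, by 4.68 ± 0.63 and 4.63 ± 0.63. The cystine transporter gene Slc7a11 rose by 5.10 and 4.34, the alanine aminotransferase gene Gpt2 by 3.18 and 3.34, the stress regulator Nupr1 by 4.57 and 4.83, and the mitochondrial folate enzyme genes Mthfd2 and Aldh1l2 by 1.98 and 2.77 in knockout and by 2.44 and 3.49 in control cells. Nupr1 lay below the added constant of 13 on all untreated arrays, so its rise is understated. Ddit3, which encodes the stress factor CHOP, rose by 1.26 ± 0.26 in control cells (adjusted p = 0.0228, limma) and differed by 0.83 ± 0.26 in knockout cells (adjusted p = 0.0736). The transcript of Atf4, a factor known to be controlled largely at translation, differed by 0.84 ± 0.35 (adjusted p = 0.158) and 0.86 ± 0.35 (adjusted p = 0.176). The C/EBP-ATF motif searched above was found in 8 of the 35 genes of this list with a promoter in the table, or 22.9%.

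Other genes of the translation machinery were followed in companion lists. Of all genes tested, 6.73% were called higher and 4.45% lower in knockout cells, and 4.21% and 2.56% in control cells. At those shares few calls would fall in lists this short. Of 17 cytosolic elongation and initiation factor genes 14 were tested, with 0 called in either genotype and medians of -0.11 in knockout and -0.14 in control cells. Of 22 mitochondrial translation genes 20 were tested. Among them Mto1, a mitochondrial tRNA modification gene, fell by 0.87 ± 0.24 in knockout cells (adjusted p = 0.0462, limma), 0 were called in control cells, and the medians were -0.40 and -0.30. Of 12 genes linked to synthetases 11 were tested and 0 were called higher. Dtd1, a proofreading enzyme that removes D-amino acids from tRNA, fell by 1.47 ± 0.33 in knockout cells (adjusted p = 0.0216, limma) and by 1.56 ± 0.33 in control cells (adjusted p = 0.0239, limma). Tarsl2, a gene related to Tars, fell by 1.01 ± 0.23 in knockout cells (adjusted p = 0.0203, limma).

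Markers of other cell types were measured beside these results. The summed signal of 4 T and NK markers found in the table was 1203 to 5624 in treated knockout cells, against 8021 to 9673 in untreated knockout cells, and 1522 to 4716 in treated control cells, against 7733 to 8626 in untreated control cells. Nkg7 carried nearly all of it, while Cd3e, Cd3g and Cd4 were at or below 136, 52.0 and 16.5 on every array. Among 4 mast cell and basophil markers Gzmb rose by 1.98 ± 0.41 and Cpa3 fell by 1.23 ± 0.34 in knockout cells (adjusted p = 0.0155 and 0.0464, limma). Both went the same way on every date in control cells, without a call. Cpa3 was at 1788, 823 and 513 in treated control cells, against 2546, 3229 and 1359 in untreated control cells. Gzmb was at 669, 282 and 115 there with treatment, against 292, 204 and 13.7 without. The mast cell and basophil sum was 2322 to 4410 in treated knockout cells, against 3726 to 4700 in untreated knockout cells, ranges that overlap. In control cells it was 1833 to 3329 with treatment, against 3520 to 5546 without, with no overlap, and 0 of the 4 genes were called there. Those tested of the other lists were 3 of 6 macrophage, 2 of 6 erythroid, 1 of 4 B lineage, 3 of 4 megakaryocyte, and 2 of 5 stroma and endothelium markers. Of these, 0 were called in either treatment comparison. Among all genes tested 6.73% were called higher and 4.45% lower in knockout cells, and 4.21% and 2.56% in control cells. With so few markers tested, 0 calls do not show that these cell types were level. The part of these cells in the synthetase values was not tested.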

How the data were processed

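The authors deposited 1 intensity per probe set and array on a linear scale, produced by MAS5, per the submitters' processing notes; its version and scaling target are not given in the sources used here. The deposited intensity values have a trimmed mean of 500 on every array (2% removed at either end), and since MAS5 takes off mismatch signal, dim values are noisy. Gene symbols came from the platform annotation. Probe sets above 70.5, the median over the whole table, on 3 or more of the 12 arrays were kept, and the brightest probe set stood for a gene, with _x_at sets used only where no other passed. Of the 35 genes 21 had over 1 passing set. Values were log2 of the intensity plus 13, which understates changes of dim genes.

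A linear model with 4 groups and the array date as a block was fitted to all 11815 genes in limma 3.58.1 (R 4.3.3), with Benjamini-Hochberg adjustment over the genes of each of 5 comparisons and a threshold of 0.05. The number of arrays limits the precision: the median half-width of a 95% interval was 0.644 on the log2 scale. The titles give the dates, and the pairing was checked: deviations from group means correlated at 0.357 to 0.753 in 18 pairs of arrays of the same date, and at -0.661 to 0.399 in 36 pairs of different dates. The fit was tested on simulated data. Every gene matching the symbol rule is accounted for, with values by array for called genes and their counterparts. In companion lists at most 5 called genes of smallest adjusted p were named, plus Atf4, Asns, Chac1, Trib3 and Ddit3. Members and lists were chosen with earlier results of these data known. Promoters came from RefSeq, and all 35 genes matched it by identifier. Figures were drawn with matplotlib 3.10.9. The closing section gives the effect of 11 other settings and of leaving out each of the 12 arrays.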

Additional observations from a re-analysis of the deposited data

How the results depend on the processing

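Under 11 other settings and the 12 fits without 1 array, no called gene changed sign. Medians of uncalled comparisons did: for the difference of responses, the cytosolic median was -0.11 and -0.099 without knockout treated or control treated replicate 2 and the mitochondrial median 0.0044 and 0.041 without knockout treated replicate 1 or 3, and for knockout against control with treatment the mitochondrial median was 0.0016 without control treated replicate 1. The class difference stayed above 0 in knockout and control cells in all of them, and it moved in knockout cells to 1.10 with quantile normalization. The counts of calls were less stable. Cytosolic genes called in knockout cells, 5 in the reported fit, were 1 without the replicate block, 3 without the filter on low values, 2 with only the compared groups and 3 with _s_at sets set aside. In control cells, 4 became 1 without the replicate block, 1 without the filter, 2 with the mean of probe sets, 1 with only the compared groups, 2 without _s_at sets and 7 with array quality weights. Mitochondrial calls in knockout cells, 2 as reported, were 1 without the replicate block, 1 without the filter, 1 with only the compared groups, 4 without date 2 and 5 with weights. In control cells, 0 became 1 without date 2 and 3 with weights. More genes are adjusted over without the filter, and fewer arrays give the spread with only the compared groups; the cause of the other moves was not tested.

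Without 1 array the cytosolic calls ranged from 1 to 6 in knockout cells and from 1 to 4 in control cells, and the mitochondrial calls in knockout cells from 1 to 3. The knockout count was 1 without knockout untreated replicate 1 or 3, 2 without knockout treated replicate 2 or 3, and 3 without knockout treated replicate 1 or control untreated replicate 1 or 3. The control count was 1 without control treated replicate 1 or any control untreated array and 2 without control treated replicate 3. The mitochondrial count was 1 without knockout treated replicate 2 or 3, any knockout untreated array, the control treated array of date 1 or 3 or the untreated one of date 3, and 3 without control untreated replicate 2. It was 2 or 3 in the remaining fits.

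The median change of the cytosolic genes in knockout cells was 0.53 with the mean of probe sets and 0.51 with weights, and 0.31 to 0.53 without 1 array. In control cells it was 0.25 to 0.53 without 1 array. The mitochondrial median in control cells was -0.30 with the mean of probe sets and -0.48 to -0.30 without 1 array. For the difference of responses the mitochondrial median was -0.29 with the mean of probe sets, and without 1 array the medians were -0.11 to 0.21 (cytosolic) and -0.19 to 0.041 (mitochondrial). The class difference in knockout cells was 0.80 to 1.13 without 1 array. Without the block the adjusted p in knockout cells was 0.375 for Cars, 0.12 for Gars, 0.495 for Iars, 0.469 for Tars and 0.491 for Yars2. Vars2 signals near the added constant of 13, such as 21.2, limit how far its change can be measured.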
